A study of Homo sapiens with 4 samples.

Results

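The insulin-like growth factor (IGF) axis was examined in RNA sequencing counts as 10 named genes, taken from the 60612 genes of the count table by matching each gene identifier to its symbol. They comprise the ligand IGF2, the receptors IGF1R, INSR and IGF2R, the receptor substrates IRS1, IRS2 and IRS4, and the binding proteins IGFBP2, IGFBP4 and IGFBP5. Of these 10 genes, 8 had counts, and IGF2 and IRS4 had 0 counts in each of the 4 libraries. The 8 genes with counts passed the filter on low counts.

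IGF2 is a secreted peptide that acts through the tyrosine kinase receptors IGF1R and INSR. These receptors phosphorylate the IRS adaptor proteins, which recruit PI3K and lead to AKT and mTOR. IGF2R binds IGF2 and carries it to lysosomes without signaling through a kinase, and the binding proteins hold the ligand outside the cell, where they can withhold or release it. The axis is well known in neuroblastoma, where IGFs act as growth and survival factors.

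The 4 libraries came from the MYCN-amplified human neuroblastoma line IMR-32. A short hairpin RNA was induced with doxycycline, and all 4 cultures received doxycycline at 1 µg/mL for 48 h. The shControl group (2 libraries) carried a control hairpin, and the genotype label of these cells reads wild type. The shNeuroD1 group (2 libraries) carried a hairpin against NeuroD1, a basic helix-loop-helix transcription factor. The study's own column headings give both shNeuroD1 libraries the same hairpin, so a single hairpin against NeuroD1 stands behind each difference below. Nothing in the labels marks replicates as separate cultures, so p-values measure the spread between these libraries, which may be technical.

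The libraries held 14665210 to 16482463 counts. NEUROD1, the targeted gene, had 6174 and 6582 counts under shControl, against 969 and 886 under shNeuroD1, 14.6% of the control level after scaling. All 10 markers of sympathetic neuroblasts were measured, with a summed level of 2339 to 2365 CPM (counts scaled to library size after normalisation by the trimmed mean of M values, TMM) in shControl and 2137 to 2163 in shNeuroD1. At an adjusted p under 0.05 in edgeR, 4 of these were lower and 5 were higher in shNeuroD1, where 28.2% and 26.8% of all genes tested were. The summed level was 87.9 to 100.4 CPM in shControl and 87.4 to 88.0 in shNeuroD1 for 8 mesenchymal or stromal markers, among which PRRX1 had 0 counts. This sum hides shifts in both directions. Of the 6 mesenchymal or stromal markers tested, 4 were called higher and 2 lower, or 66.7% and 33.3%. Of those called higher, 3 also had a log2 fold change beyond 1. For 4 Schwann cell markers the summed level was 5.04 to 5.16 CPM in shControl and 8.41 to 9.59 in shNeuroD1. Of these 4, 2 were called higher and 0 lower. For 3 blood markers the summed level was at most 0.592 CPM, with HBB at 0 counts. Mitochondrial genes took 4.37% and 4.59% of the counts in shControl, against 5.39% and 5.51% in shNeuroD1, without overlap. The part of these shifts in the results below was not tested. In bulk RNA, fewer cells of a type and less RNA per cell cannot be told apart.

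At an adjusted p under 0.05, shNeuroD1 held less RNA of 5 and more RNA of 2 of the 8 members tested (edgeR quasi-likelihood test, Benjamini-Hochberg adjustment over 17537 genes). IGF1R, INSR, IRS1, IGFBP4 and IGFBP5 were lower, and IRS2 and IGFBP2 were higher. Calls were frequent in the table as a whole. Of all genes tested, 55.0% passed this threshold, 28.2% as lower and 26.8% as higher. Adding a log2 fold change beyond 1 in size left 5.14% of all genes as lower and 8.79% as higher, and left IGFBP5 as the single member, as lower. In the deposited FPKM values, where limma on log2(FPKM + 1) called 4.84% of all genes, IGFBP5 was the single call among 6 members tested. The median log2 fold change of the 8 members was -0.43, and that of all genes tested was 0.01. These 8 genes were chosen by name, and no test was made over them as a set.

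**Figure D1:**
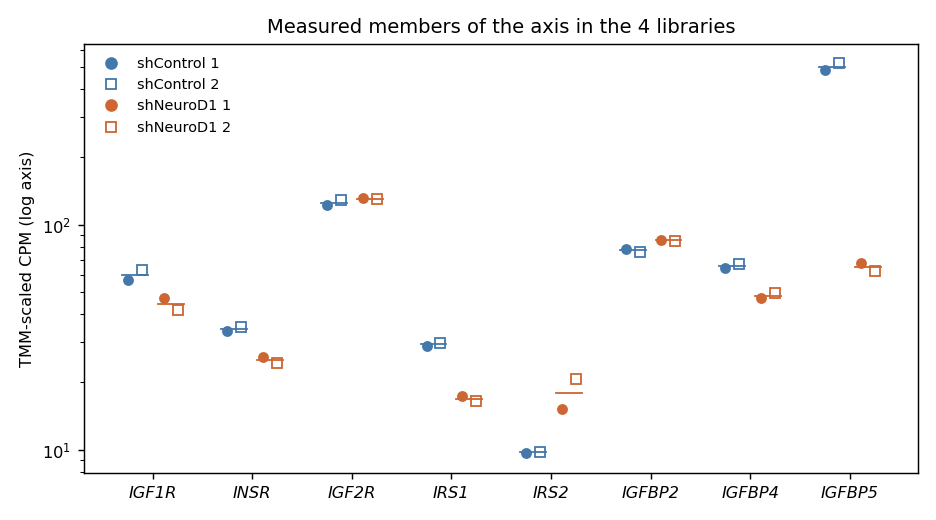
TMM-scaled CPM (log axis) of the 8 members with counts, with a point for each library and a short line at each group mean (n = 2). IGFBP5 stands at 485 and 521 CPM in shControl and at 67.8 and 62.4 in shNeuroD1. For each other member, its own shControl and shNeuroD1 means lie within a factor of 2 of each other.

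**Figure D2:**
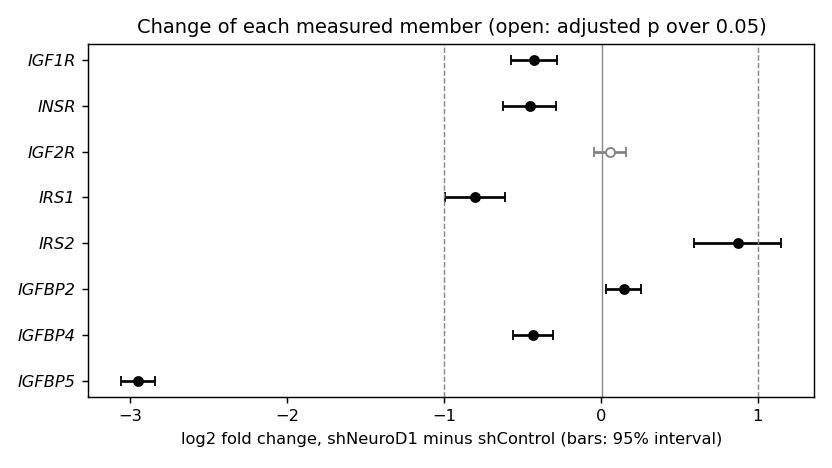
Log2 fold change of each measured member, shNeuroD1 minus shControl, with its 95% interval from the edgeR fit. The grey line marks the median of all genes tested, the dashed lines mark a change of 1 in size, and the open symbol marks IGF2R, with an adjusted p of 0.333.

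The ligand was considered first. IGF2 (ENSG00000167244, GRCh38 chromosome 11, 2129112 to 2149603, minus strand) had 0 counts in shControl replicates 1 and 2 and 0 counts in shNeuroD1 replicates 1 and 2. A count of 0 allows up to 3 counts, or 0.189 to 0.204 CPM in these libraries. The annotation limits this reading, since 25.0% of the exon bases of IGF2 (1744 of 6979) belong to no other annotated gene on either strand. The tool used for counting, HTSeq, can set aside reads that fall on more than 1 gene. The genes that share the other bases, a second identifier also named IGF2, INS-IGF2, IGF2-AS and AC132217.1, had 0 counts in each library. Reads set aside as shared would be missing from these genes too, so their 0 counts cannot show whether the shared bases were transcribed. Over the unshared bases, 3 counts would be a level of 0.108 to 0.117 RPKM (CPM per kilobase of exon). IGF2 RNA was thus not detectable at this depth in the unshared bases, and the counts cannot speak for the shared ones.

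The counts of the other ligands were as low. INS, the insulin gene, had 0 counts in each library, and IGF1 averaged 0.034 ± 0.048 CPM (SD, n = 2) under shControl and 0 under shNeuroD1, below the limit that a count of 0 allows. H19, the noncoding RNA gene next to IGF2, had 14 and 24 counts under shControl, against 39 and 16 under shNeuroD1. The groups overlapped. Its log2 fold change stood at 0.54 ± 0.398 (SE), and edgeR gave an adjusted p of 0.258. It was -0.24 without shNeuroD1 replicate 1 (adjusted p 0.761) and 1.04 without shNeuroD1 replicate 2 (adjusted p 0.0354), so its direction depended on which library was left out. No change in ligand RNA could therefore be measured between the groups.

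IGF1R encodes the receptor kinase for IGF1 and IGF2. IGF1R (ENSG00000140443, chromosome 15, 98648539 to 98964530, plus strand) was at 56.9 and 62.8 CPM in shControl, against 47.5 and 41.6 CPM in shNeuroD1. Both shNeuroD1 libraries lay below both shControl libraries, and the group means were 59.8 ± 4.19 and 44.5 ± 4.12 CPM (SD, n = 2 each). The level in shNeuroD1 was 74.5% of the control level, with a log2 fold change of -0.43 ± 0.0707 (SE) and an adjusted p of 5.3e-06 in edgeR. Without shControl replicate 2, the higher of the control libraries, the change was -0.36 and the adjusted p was 0.0653. On log2(FPKM + 1) limma gave -0.42 with an adjusted p of 0.199.

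The deposited FPKM values (fragments per kilobase of transcript, scaled to depth) of assembled transcript starts place most IGF1R RNA at its annotated first exon. This start stood at 3.01 and 3.15 FPKM in shControl and at 2.24 and 1.96 in shNeuroD1, and it carried 86.4% to 99.9% of the IGF1R signal in the 4 libraries. A downstream start inside the gene took 0.101% and 10.8% of it under shControl, against 10.3% and 0.770% under shNeuroD1. The smaller start thus varied as much within each group as between the groups.

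INSR encodes the insulin receptor. INSR (ENSG00000171105, chromosome 19, 7112255 to 7294034, minus strand) was at 33.7 and 35.0 CPM in shControl, against 26.0 and 24.3 CPM in shNeuroD1. The groups did not overlap, and 73.1% of the INSR level was left in shNeuroD1. Its log2 fold change stood at -0.45 ± 0.0829 (SE), and edgeR gave an adjusted p of 2.4e-05. The deposited FPKM of INSR did not separate the groups. It was 1.96 and 1.39 under shControl against 1.65 and 1.55 under shNeuroD1, a log2 difference of -0.03 on log2(FPKM + 1) with a limma adjusted p of 0.916. The fall of INSR therefore rests on the counts.

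The balance of IGF1R and INSR did not separate the groups. The ratio of IGF1R to INSR in counts per kilobase was 1.26 and 1.34 under shControl against 1.37 and 1.28 under shNeuroD1. These ranges overlapped (exact permutation test over libraries, two-sided, p = 0.667). With 2 libraries against 2, this test cannot go below 0.333.

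The insulin receptor RNA exists as a pair of splice forms. The A form lacks exon 11 and encodes a receptor that binds IGF2 with high affinity, and the B form contains it. Exon 11 lies at chr19:7150497-7150532 on the minus strand, within the coding region, and its 36 bases add 12 codons with no shift of frame. The sequences below are shown because this exon decides which form is present. They are from the GENCODE 29 transcripts (GRCh38), 5′ to 3′, with 24 bases of exon 10 before and 24 bases of exon 12 after. Capitals mark exon 11 in the B form and the pair of bases joined in the A form.
INSR with exon 11: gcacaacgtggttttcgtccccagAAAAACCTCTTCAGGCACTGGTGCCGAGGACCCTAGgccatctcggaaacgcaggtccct
INSR without exon 11: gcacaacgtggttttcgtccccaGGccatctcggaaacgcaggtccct

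In the deposited splicing events, exon 11 of INSR was listed in each of the 4 libraries and only in the skipped form. The FPKM without exon 11 was 1.87 and 1.22 under shControl against 1.53 and 1.42 under shNeuroD1. No event with exon 11 was listed, so the listed share with exon 11 was 0% in each library and the difference between groups was 0, with nothing left to test. These tables list an event only above 0 FPKM, and 35.5% to 37.8% of skipped exons were listed in both forms in a library. The depth behind an event is unknown, so an upper limit for the B form cannot be given.

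IGF2R encodes the mannose 6-phosphate receptor that clears IGF2. IGF2R (ENSG00000197081, chromosome 6, 159969099 to 160113507, plus strand) was at 122 and 128 CPM in shControl, against 131 and 130 CPM in shNeuroD1. The shNeuroD1 libraries were slightly above the shControl libraries, with means of 125.5 ± 4.25 and 130.6 ± 0.460 CPM (SD, n = 2 each). The log2 fold change stood at 0.06 ± 0.0489 (SE; 95% interval -0.04 to 0.16), and edgeR gave an adjusted p of 0.333. This did not pass the test. Scaling by library size alone raised it to 0.17 (adjusted p 0.00398), along with the median over all genes, which that scaling put at 0.12.

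The ratio of IGF2R to IGF1R in counts per kilobase was 1.68 and 1.60 under shControl against 2.16 and 2.45 under shNeuroD1. The clearing receptor thus stood further above the kinase receptor in both shNeuroD1 libraries, without overlap between the groups. The exact permutation test over libraries gave p = 0.333, the smallest that 2 against 2 allows.

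The substrates moved in opposite directions. IRS1 (ENSG00000169047, chromosome 2, 226731317 to 226799759, minus strand), an adaptor that docks PI3K to IGF1R and INSR, had 426 and 474 counts under shControl, against 264 and 250 under shNeuroD1. Its level was 28.9 and 29.8 CPM in shControl, against 17.4 and 16.4 CPM in shNeuroD1, and the groups did not overlap. The fall left 57.5% of the control level, with a log2 fold change of -0.80 ± 0.0937 (SE) and an adjusted p of 1.0e-08 in edgeR.

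IRS2 (ENSG00000185950, chromosome 13, 109752698 to 109786568, minus strand), the other main adaptor of these receptors, had 142 and 156 counts under shControl, against 230 and 313 under shNeuroD1. Its level was 9.63 and 9.82 CPM in shControl, against 15.1 and 20.6 CPM in shNeuroD1. Both shNeuroD1 libraries were higher, though they differed from each other more than the shControl libraries did. The rise was 1.83-fold, with a log2 fold change of 0.87 ± 0.136 (SE) and an adjusted p of 1.9e-06 in edgeR. The log2 fold change was 0.85 without shControl replicate 1 and 0.88 without shControl replicate 2, and the call was lost in both. Without shNeuroD1 replicate 1 it was 1.08. Over the 10 alternatives computed for IRS2, it ranged from 0.63 to 1.08.

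The balance of these adaptors within a library needs no scaling between libraries. The ratio of IRS1 to IRS2 counts was 3.0 and 3.04 under shControl against 1.15 and 0.799 under shNeuroD1. Per kilobase of exon the ratio went from 2.45 and 2.48 to 0.939 and 0.653. IRS1 RNA was thus the more abundant in both shControl libraries and IRS2 RNA in both shNeuroD1 libraries on the per-length scale (exact permutation test over libraries, two-sided, p = 0.333, the smallest possible). IRS1 and IRS2 are not listed in the deposited FPKM values, so this could not be compared there.

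IRS4 (ENSG00000133124, chromosome X, 108732482 to 108736409, minus strand), a related adaptor encoded by a single exon, had 0 counts in each of the 4 libraries. Of its exon bases, 88.2% are shared with no other annotated gene on either strand. Over those bases, 3 counts would be 0.0546 to 0.0588 RPKM, against 2.95 ± 0.0673 RPKM for IRS1 and 1.20 ± 0.0165 RPKM for IRS2 (SD, n = 2 each) in shControl. IRS4 was not detectable at this depth in either group.

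IGFBP5, a secreted IGF binding protein that also attaches to extracellular matrix, was the member with the largest change. IGFBP5 (ENSG00000115461, chromosome 2, 216672105 to 216695525, minus strand) had 7149 and 8272 counts under shControl, against 1032 and 950 under shNeuroD1. Its level went from 485 and 521 CPM to 67.8 and 62.4 CPM, or from 503.0 ± 25.4 to 65.1 ± 3.85 CPM (SD, n = 2 each). The level in shNeuroD1 was 12.9% of that in shControl, with a log2 fold change of -2.95 ± 0.0518 (SE; 95% interval -3.06 to -2.84) and an adjusted p of 4.1e-29 in edgeR.

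Ranked from the lowest, this log2 fold change was number 65 of 17537, just below that of NEUROD1 itself, which was number 86 with -2.77. IGFBP5 passed the threshold in each of the 12 alternatives computed for it, with log2 fold changes from -3.01 to -2.68. The deposited FPKM gave the same picture, at 57.1 and 61.0 under shControl against 8.70 and 7.97 under shNeuroD1. A noncoding gene, AC007563.2, overlaps IGFBP5 on the opposite strand over 298 bases and had 0 counts.

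The promoter of IGFBP5 is shown because IGFBP5 was the member past both thresholds and NeuroD1 is known to bind E-boxes. It comprises the 250 bases before the RefSeq start (GRCh38.p14, chr2:216695550-216695799, minus strand, 5′ to 3′). The E-box CANNTG, which would stand in capitals, does not occur in these bases or in the first 50 bases of the transcript.
IGFBP5 promoter: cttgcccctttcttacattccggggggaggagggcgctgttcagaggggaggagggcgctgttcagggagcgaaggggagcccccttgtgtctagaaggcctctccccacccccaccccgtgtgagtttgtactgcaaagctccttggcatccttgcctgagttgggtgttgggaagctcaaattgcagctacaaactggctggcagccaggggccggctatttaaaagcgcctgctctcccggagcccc

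The motifs were searched on both strands of the 300-base windows around RefSeq starts, where CANNTG and CAGCTG read the same on both strands and CAGATG and CAGCTG are forms of CANNTG. The general E-box occurs in 68.7% of 35116 such windows, CAGATG in 14.7% and CAGCTG in 17.9%. Windows were found for 9 of the 10 members, 12 in all, and 8 of these 12 held CANNTG. IGF2R held 5 matches, INSR, IRS1, IRS2 and IGFBP4 held 1 each, and IGF1R and IGFBP5 held 0. The windows of IGFBP2 held 3, 1 and 0 matches, and those of IRS4 held 1 and 0. Whether matches go with changes in RNA was not tested. CAGATG, a form bound by NeuroD1, was found in the window of IGFBP4, and CAGCTG in that of INSR. A match in letters is not a bound site, and these windows leave out distal elements. The study also mapped NeuroD1 binding in IMR-32 cells by chromatin immunoprecipitation sequencing, and those peaks were not examined here. The assembled first exon of IGFBP5 in the deposited events began 731 bases inside the annotated gene start, so the window shown is not the one next to that assembled start.

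IGFBP2 and IGFBP5 are neighbours on chromosome 2, with their ends facing each other 7668 bases apart. IGFBP2 (ENSG00000115457, 216632828 to 216664436, plus strand), a secreted binding protein abundant in fetal and neural tissue, was at 78.2 and 75.9 CPM in shControl, against 85.5 and 85.0 CPM in shNeuroD1. The shNeuroD1 libraries were higher by a small margin, with a log2 fold change of 0.15 ± 0.055 (SE; 95% interval 0.03 to 0.26) and an adjusted p of 0.0245 in edgeR. This call was lost in DESeq2 (0.13, adjusted p 0.269), with no filter on low counts (adjusted p 0.0871), and without any of the 4 libraries (adjusted p 0.066 to 0.155).

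The neighbours therefore did not move together. The ratio of IGFBP5 to IGFBP2 counts, which needs no scaling, was 6.20 and 6.86 under shControl against 0.793 and 0.734 under shNeuroD1. More reads came from IGFBP5 than from IGFBP2 in both shControl libraries, and fewer in both shNeuroD1 libraries (exact permutation test over libraries, two-sided, p = 0.333, the smallest possible).

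IGFBP4 (ENSG00000141753, chromosome 17, 40443461 to 40457731, plus strand), a binding protein that restrains IGFs until it is cleaved by the protease PAPPA, was at 64.0 and 66.8 CPM in shControl, against 47.3 and 49.6 CPM in shNeuroD1. The groups did not overlap. The level in shNeuroD1 was 74.1% of the control level, with a log2 fold change of -0.43 ± 0.0631 (SE) and an adjusted p of 6.3e-07 in edgeR. In deposited FPKM it went from 21.5 and 22.7 to 16.8 and 17.5, where limma on log2(FPKM + 1) gave -0.35 with an adjusted p of 0.171.

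Levels of different genes were set side by side per length. In shControl the order by RPKM was IGFBP5 (78.1 ± 3.94), IGFBP4 (29.7 ± 0.892), IGFBP2 (16.2 ± 0.347), IGF2R (7.03 ± 0.238), IGF1R (4.29 ± 0.301), INSR (3.29 ± 0.0876), IRS1 (2.95 ± 0.0673) and IRS2 (1.20 ± 0.0165; SD, n = 2 each). No neighbours in this order overlapped. In shNeuroD1 the order was IGFBP4 (22.0 ± 0.724), IGFBP2 (17.9 ± 0.0804), IGFBP5 (10.1 ± 0.598), IGF2R (7.32 ± 0.0258), IGF1R (3.20 ± 0.295), INSR (2.40 ± 0.113), IRS2 (2.19 ± 0.472) and IRS1 (1.70 ± 0.0665), and here INSR and IRS2 overlapped.

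IGFBP5 thus went from the most to the least abundant of the 3 binding proteins among the members. It made up 62.3% and 63.6% of their summed RPKM in shControl, against 21.1% and 19.4% in shNeuroD1. The sum itself went from 120.8 and 127.1 RPKM to 50.0 and 50.0 RPKM. The deposited FPKM, which rests on assembled transcripts, exchanges the places of IGFBP2 and IGFBP4. On that scale the share of IGFBP5 went from 47.3% and 49.1% to 11.7% and 10.7%, and the sum from 120.6 and 124.1 to 74.6 and 74.5.

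**Figure D3:**
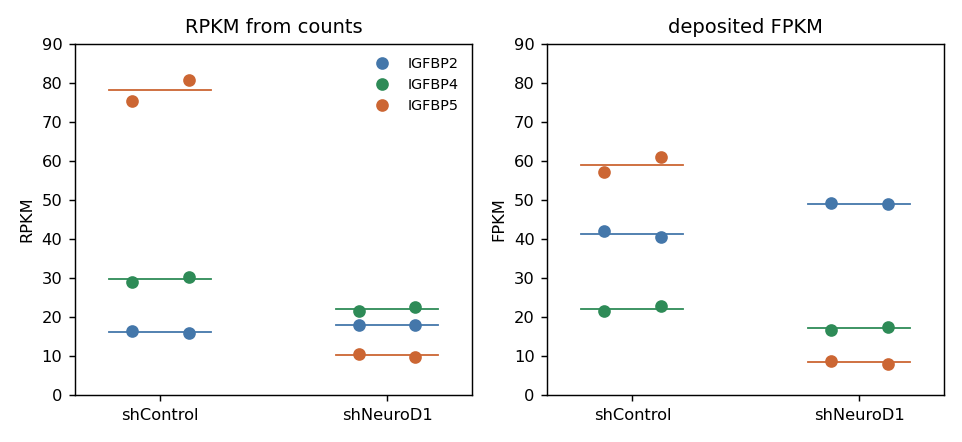
Level per length of IGFBP2, IGFBP4 and IGFBP5 in each library, as RPKM from counts (left) and as deposited FPKM (right), with a point for each library and a line at each group mean (n = 2). IGFBP5 is the highest of the 3 in both shControl libraries and the lowest in both shNeuroD1 libraries on either scale, while IGFBP2 and IGFBP4 exchange places between the scales.

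Other genes of the pathway were read from lists of 71 genes, of which 62 were tested. Of these, 20 were called lower and 22 higher by the adjusted p alone, which is 32.3% and 35.5% of those tested, against 28.2% and 26.8% of all genes. Their median log2 fold change was -0.02, against 0.01 for all genes. Under scaling by library size alone the split was 13 lower and 26 higher, and limma on log2(FPKM + 1) called 0 lower and 2 higher of 47 tested. The genes described as lower in the next paragraphs were therefore called on the counts, and none of them on that FPKM scale. STC2, PTPN11 and RPS6KB1 were not tested there, and that fit called 4.84% of all genes. Both thresholds were passed by 3 lower genes (STC2, GRB10 and FOXO4) and 5 higher genes (IGFBP3, IGFBP6, SHC3, SHC4 and GRB14) of the 62 tested. Of all genes tested, 5.14% passed both as lower and 8.79% as higher. GRB10 and SHC4 stood close to the threshold on size. The log2 fold change of GRB10 was -1.03, against -0.91 with library size alone, -0.88 without shNeuroD1 replicate 2 and -0.76 on log2(FPKM + 1). That of SHC4 was 1.03, against 0.93 without shNeuroD1 replicate 2 and 0.99 without shControl replicate 1.

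The list of other binding proteins and their regulators, which also held the receptor gene INSRR, had 8 tested genes. Of these 8, 4 (INSRR among them) were lower and 3 were higher, with a median log2 fold change of -0.42. These are 50% and 37.5%, against 28.2% and 26.8% of all genes. IGFBP3, the main IGF carrier in serum, had 3 and 2 counts under shControl, against 59 and 74 under shNeuroD1, a ratio of 26.8 (95% exact counting interval 11.2 to 83.8) and an edgeR adjusted p of 8.5e-11. IGFBP6, which prefers IGF2, was at 1.02 and 0.441 CPM in shControl, against 2.50 and 1.71 CPM in shNeuroD1. Its log2 fold change stood at 1.53 ± 0.411 (SE), and edgeR gave an adjusted p of 0.002, which was not past the threshold in DESeq2 (adjusted p 0.0706), without shControl replicate 2 (0.14) or without shNeuroD1 replicate 1 (0.0597). Both genes stayed far below the levels of IGFBP2 and IGFBP4 in CPM.

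PAPPA, the protease that releases IGF from IGFBP4, rose by 0.73 on the log2 scale (edgeR adjusted p 0.039). That call was lost in DESeq2 (adjusted p 0.31) and without each of the 4 libraries in turn (adjusted p 0.0587 to 0.211). Both stanniocalcins, which inhibit PAPPA, were lower. STC1 went from 172 and 167 to 101 and 102 CPM, and STC2 from 6.51 and 5.86 to 1.71 and 1.44 CPM, with log2 fold changes of -0.73 and -1.96. IGFBPL1, a related secreted protein and the most abundant gene of the list in CPM, went from 964 and 1009 to 642 and 641 CPM, with a log2 fold change of -0.62 ± 0.0392 (SE) and an adjusted p of 6.6e-15 in edgeR. INSRR, a receptor of the insulin receptor family, was also lower, with a log2 fold change of -0.93. On log2(FPKM + 1) it was -0.41 (limma adjusted p 0.375).

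RNA of the IGF2 mRNA binding proteins, named for their binding to IGF2 transcripts, was present although IGF2 had 0 counts. IGF2BP1 was at 553 and 623 CPM in shControl, against 409 and 396 CPM in shNeuroD1, with a log2 fold change of -0.55 ± 0.0458 (SE) and an adjusted p of 6.5e-12 in edgeR. IGF2BP3 was at 94.8 and 96.4 CPM in shControl and at 97.1 and 98.6 in shNeuroD1 (edgeR adjusted p 0.611), a log2 fold change of 0.03 that library size alone raised to 0.15 (adjusted p 0.018). IGF2BP2 had an adjusted p of 0.694.

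Of 16 tested adaptors and phosphatases that act beside the IRS proteins, 10 were higher and 3 were lower (median log2 fold change 0.53). These are 62.5% and 18.8%, against 26.8% and 28.2% of all genes. SHC3, a neuronal adaptor of tyrosine kinase receptors, rose from 5.97 and 8.56 to 51.4 and 49.2 CPM, with a log2 fold change of 2.78 ± 0.109 (SE) and an adjusted p of 2.8e-20 in edgeR. On log2(FPKM + 1) the change of SHC3 was 1.33 (limma adjusted p 0.0398). Its relatives SHC1, SHC2 and SHC4 were higher too, with log2 fold changes of 0.84, 0.91 and 1.03. On log2(FPKM + 1) SHC1 was at 0.17 (limma adjusted p 0.51) and SHC2 at 0.88 (limma adjusted p 0.12). GRB10 and GRB14, adaptors that restrain the insulin and IGF1 receptors, moved in opposite directions. GRB10 fell from 52.4 and 51.5 to 28.2 and 22.8 CPM, and GRB14 rose from 0.746 and 0.441 to 3.16 and 2.36 CPM. The most abundant in CPM, PTPN11 and GRB2, had log2 fold changes of -0.10 (edgeR adjusted p 0.049) and 0.13 (edgeR adjusted p 0.0158), and that of PTPN11 turned to 0.02 with library size alone. Neither call held in DESeq2 (adjusted p 0.0665 and 0.149), that of GRB2 was lost on leaving out any single library (adjusted p 0.0581 to 0.206), and that of PTPN11 without shControl replicate 2 (0.081) and without either shNeuroD1 library (0.316 and 0.186).

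Of 26 tested genes of PI3K, AKT and mTOR, 9 were lower and 7 were higher, none beyond a log2 fold change of 1 in size, with a median of -0.04. These are 34.6% and 26.9%, near the 28.2% and 26.8% of all genes. EIF4EBP2, a repressor of translation that mTOR inactivates, went from 237 and 240 to 146 and 143 CPM, a log2 fold change of -0.72. RPS6KB1, a kinase that mTOR activates, was at 207 and 197 CPM in shControl, against 174 and 176 CPM in shNeuroD1 (log2 fold change -0.21, edgeR adjusted p 0.000242). With library size alone the change of RPS6KB1 was -0.10 and its call was lost (adjusted p 0.0725). Of 8 FOXO factors and brakes on mTOR, 3 were lower and 2 were higher, or 37.5% and 25%. FOXO4, a transcription factor held in the cytoplasm by AKT, went from 13.6 and 13.9 to 5.32 and 6.17 CPM, with a log2 fold change of -1.26 ± 0.147 (SE) and an adjusted p of 8.7e-09 in edgeR, against -0.69 on log2(FPKM + 1) (limma adjusted p 0.0777). DDIT4, an inhibitor of mTOR, went from 102 and 101 to 63.0 and 59.0 CPM, a log2 fold change of -0.73, while FOXO3 had a log2 fold change of 0.12 (edgeR adjusted p 0.107), or 0.23 with library size alone (adjusted p 0.00259).

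**Figure D4:**
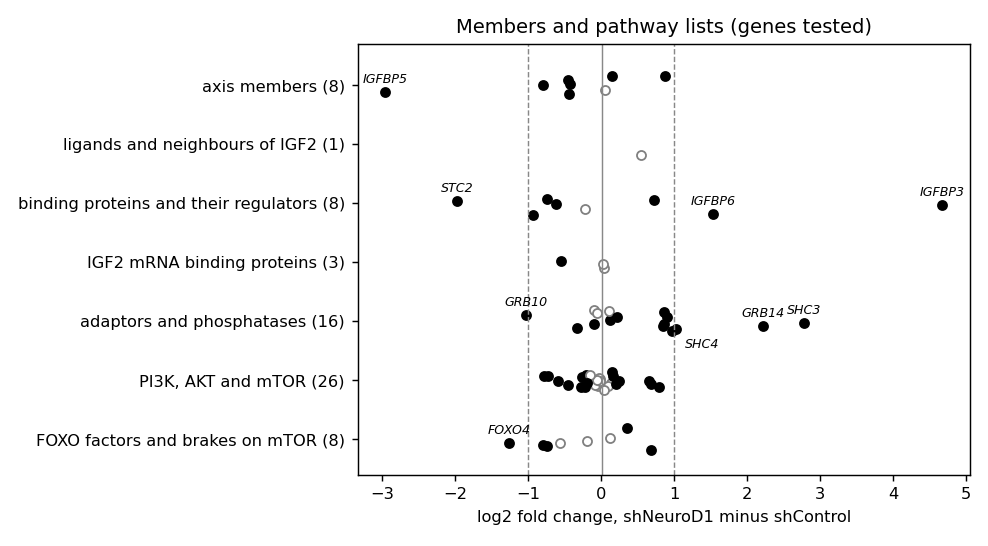
Log2 fold change, shNeuroD1 minus shControl, of the tested axis members and of each pathway list, with the number of genes tested in brackets, filled where the adjusted p was under 0.05 and spread vertically for display. Genes past both thresholds are named, and no gene of PI3K, AKT and mTOR lies beyond the dashed lines at a change of 1 in size.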

How the data were processed

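RNA sequencing counts of 4 libraries (2 shControl, 2 shNeuroD1) were analysed. The authors deposited raw counts per Ensembl gene, and, per library, FPKM of transcript starts, ends and splicing events. The submitters' processing notes name cutadapt 1.9.1, HISAT2 2.0.1, HTSeq 0.6.1, DESeq2 and hg38. The use of strand in counting was not given in the sources used here. Symbols were found for 60401 of 60612 identifiers, and coordinates are those of GENCODE 29 (GRCh38).

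Genes were kept by filterByExpr (minimum count 10), scaled by TMM and compared with edgeR 4.0.16 (R 4.3.3) by the quasi-likelihood F test, two-sided, with Benjamini-Hochberg adjustment over 17537 genes. The standard error was the size of the log2 fold change over the square root of F. RPKM used the union of annotated exons. Libraries of a group differed by more than sampling noise. Intervals and limits from 3 counts cover counting error only.

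The members and lists were chosen with earlier results of these data known. Pathway genes were named where past both thresholds or among the 2 highest in CPM of their list. 1 further gene of the lists is not reported here and was left out of their counts. PAPPA, INSRR, SHC1, SHC2, IGF2BP2, INS and IGF1 were named after their values were seen. Alternatives were DESeq2 size factors, library size alone, no filter, a floor of 1 CPM on the mean, DESeq2 1.42.0, the replicate number as a block, limma 3.58.1 on log2(FPKM + 1) and log2(FPKM + 0.1) for genes averaging 1 FPKM or more, and leaving out each library.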

Additional observations from a re-analysis of the deposited data

How the results depend on the processing

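Of 92 member log2 fold changes recomputed under the alternatives, 74 kept their direction and their side of an adjusted p of 0.05, 17 kept their direction and lost the call, 1 gained it, and 0 turned. Members called lower numbered 1 in limma on log2(FPKM + 1) and 1 on log2(FPKM + 0.1), where 6 members were tested, and members called higher numbered 0 in both. In the same fits, called pathway genes numbered 0 lower and 2 higher, and 0 lower and 1 higher, of 47 tested. Members called higher numbered 1 with no filter and 1 in DESeq2, which called 14 pathway genes higher. Library size alone gave 13 pathway genes lower. Leaving out 1 library gave 4 to 5 members lower and 0 to 1 higher, 0 to 1 of them beyond a log2 fold change of 1. There the lone library of a group was assumed to vary like the others. Of the named pathway genes, PTPN11 turned to 0.0168 with library size alone. H19 ranged from -0.24 to 1.04 when 1 library was left out, and was called higher (adjusted p 0.0354) without shNeuroD1 replicate 2. The cause was not tested. The labels do not pair same-numbered libraries. Their deviations correlated at 0.016 over all genes tested, which cannot show whether they shared a culture or a batch. With the replicate block 5 members were lower and 2 higher, and 23 pathway genes were higher. 2 libraries per group and 1 hairpin limit these results, and depth limits IRS4, IGF1 and IGFBP3. IGF2 is limited by depth in its unshared bases and by the annotation in its shared bases.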
